A study of Ambystoma mexicanum with 3 samples.

Results

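Nuclei of axolotl (*Ambystoma mexicanum*) tail tips were compared between the time of amputation (0 HPA, hours post amputation) and 6 HPA in control embryos (Cont 6 HPA), to ask which transcripts differ in level early after tail injury. All embryos were at stage 42. According to the series design, embryos had 2 mm of the distal tail removed and the controls were kept in rearing water. At 6 HPA the last 1 mm of the tail was collected and pooled from about 100 embryos per treatment. The design does not describe the 0 HPA pool separately. Its number of embryos, and whether its tissue came from the same position of the tail, are therefore not known. Each group is 1 library of pooled animals. Another library, from embryos in 10 µM romidepsin, a histone deacetylase inhibitor, at 6 HPA (Rom 6 HPA), is given only as a level beside the others. The labels write the later time in days, whereas the study gives hours, which are used here. The study's text attaches the numbers of nuclei of both 6 HPA libraries the other way round, and the assignment of the labels was used. All symbols with at least 200 UMIs (unique molecular identifiers, 1 per captured transcript) in 0 HPA and Cont 6 HPA together were taken, which gave 8318 of 16033 symbols. They come from 16766 of the 91648 transcript features, and UMIs of all features with 1 symbol were summed. Levels are CPM, counts of UMIs of a symbol scaled to the total of its library. With 1 library per group there is no replicate check and no test, so the time point and the library cannot be told apart, and every 95% interval below covers counting error only. Because the nuclei are pooled, fewer cells of a type and less RNA per cell cannot be told apart either.

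In axolotls a cut tail closes its wound with migrating epidermis within hours, and a blastema of progenitor cells forms later beneath it. The first transcripts that wounded tissue makes are usually those of immediate early genes, transcription factors such as Fos, Jun and Egr proteins that need no new protein for their induction, followed by cytokine signals and their inhibitors. Enzymes that cut the extracellular matrix, such as matrix metalloproteinases, and enzymes that build hyaluronan, a long sugar polymer of loose matrix, are known for their part in regenerating appendages.

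The libraries held 31522 nuclei with 42537606 UMIs at 0 HPA and 56936 nuclei with 105765943 UMIs in Cont 6 HPA. Median depth was 1019 UMIs per nucleus at amputation against 1623 in Cont 6 HPA, so the later library was deeper both per nucleus and in total. In each library most nuclei lay in a narrow peak of depth, and a tail of deeper nuclei followed. Deep nuclei, with over 1.5 times the median of their library, were 19.98% of nuclei and held 39.3% of UMIs at 0 HPA, against 9.36% of nuclei and 21.1% of UMIs in Cont 6 HPA. The 2 libraries shared 526 barcodes, 1.67% of those of 0 HPA and 0.924% of those of Cont 6 HPA. The mitochondrial transcript *Mt-nd1* alone took 129310 CPM at 0 HPA and 172720 CPM in Cont 6 HPA, and *Krt5*, the keratin of basal epidermis, took 25073 and 24805 CPM. Other abundant symbols were *Cox1* (11196 and 13073 CPM) and *Actb* (11678 and 12373 CPM), a mitochondrial oxidase subunit and cytoplasmic actin.

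**Figure D1:**
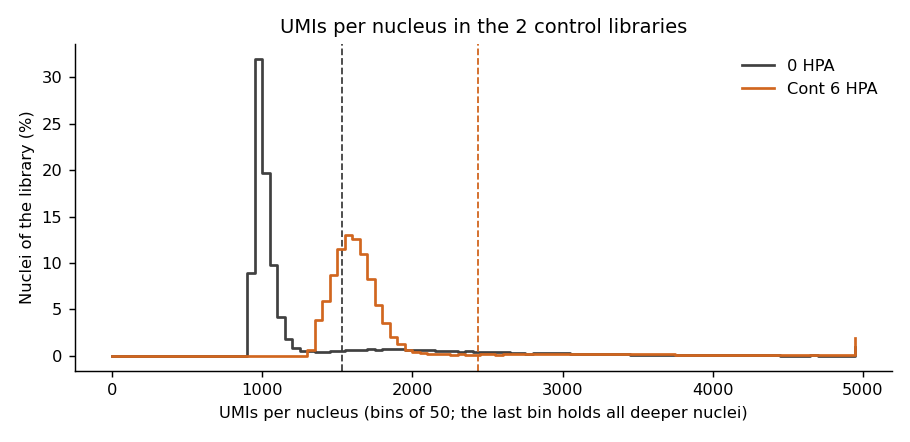
Share of nuclei (y axis, %) by UMIs per nucleus (x axis, bins of 50) in 0 HPA (grey) and Cont 6 HPA (orange), with dashed lines at 1528.5 and 2434.5 UMIs, above which nuclei of the respective library were called deep. The peak of Cont 6 HPA lies to the right of that of 0 HPA, with medians of 1623 and 1019 UMIs.

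Tail tips at 6 HPA had higher levels of some immediate early genes, cytokine signalling genes and matrix enzymes, among them *Fosl1*, *Lep*, *Socs3* and *Mmp8*, and lower levels of some epithelial genes, among them *Elf3*. Of the 8318 symbols, 91 (1.09%) were at least 2-fold higher in Cont 6 HPA and 104 (1.25%) at least 2-fold lower. At least 4-fold higher were 21 symbols and at least 4-fold lower were 2. The median log2 ratio over all symbols was −0.19 and 24.2% of symbols were above 0. With size factors from the median of ratios, every log2 ratio is 0.19 higher, and 122 symbols were then at least 2-fold higher and 20 at least 2-fold lower. Ratios below are those to the library total, and 0.19 can be added to read them against the median symbol. The higher symbols together took 1377 CPM at 0 HPA and 4909 CPM in Cont 6 HPA, and the lower ones 2405 and 1038 CPM.

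**Figure D2:**
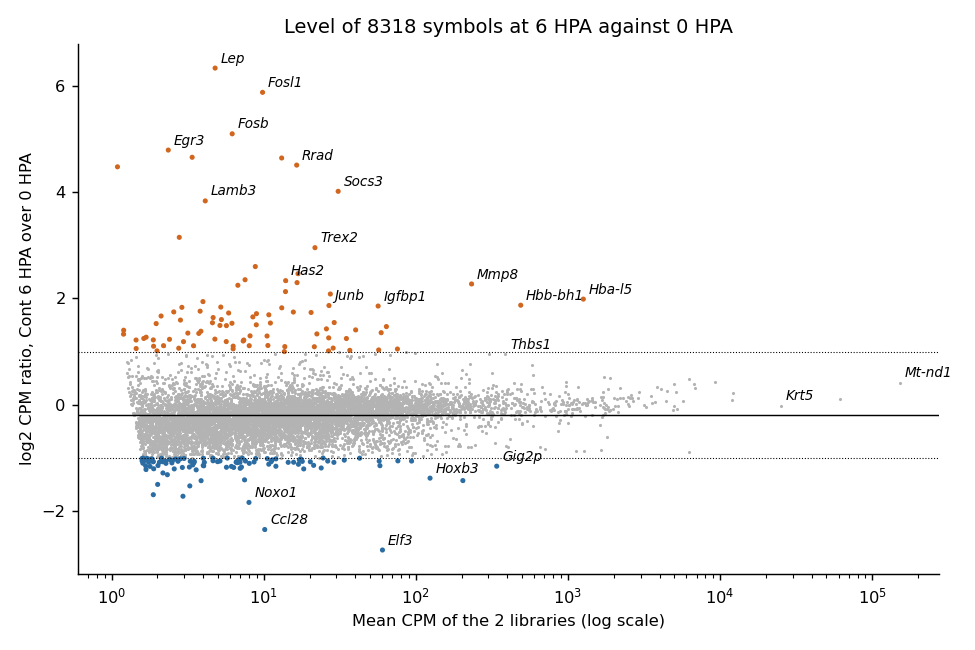
Each point is 1 of 8318 symbols, with its mean CPM in the 2 libraries (x axis, log scale) and its log2 CPM ratio of Cont 6 HPA over 0 HPA (y axis). Orange points are at least 2-fold higher and blue points at least 2-fold lower (dotted lines), and the solid line is the median of −0.19. *Lep* (6.33) is the highest and *Elf3* (−2.73) the lowest of the named symbols.

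3 genes that stand for different parts of the response, the phosphatase *Dusp5*, the growth factor *Areg* and the protease *Mmp8*, were also targets of the study's Nanostring probes. The 100-base target regions are shown, 5′ to 3′ and in lower case throughout, as the sequences that the probes of these symbols target. Whether they match the transcript features counted here under the same symbols was not tested.
Areg: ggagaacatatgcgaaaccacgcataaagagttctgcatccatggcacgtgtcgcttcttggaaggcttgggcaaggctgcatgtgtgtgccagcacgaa
Dusp5: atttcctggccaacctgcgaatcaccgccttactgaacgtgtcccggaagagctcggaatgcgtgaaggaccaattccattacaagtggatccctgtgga
Mmp8: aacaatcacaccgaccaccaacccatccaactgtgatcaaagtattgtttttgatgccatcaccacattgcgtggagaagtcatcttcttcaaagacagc

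Immediate early transcription factors had the highest median of the gene lists in all nuclei. JAK-STAT genes, described below, had a higher one in deep nuclei (1.27 against 0.95) and at a minimum of 1000 UMIs (0.78 against 0.53). The lists were chosen with earlier results of these data known, so the shares of their members past 2-fold, here and below, are descriptions. Of 18 measured members, 9 (50%) were at least 2-fold higher, against 1.09% of all symbols, and none was at least 2-fold lower (1.25% of all symbols). The median log2 ratio was 0.86, and 17 were above 0. *Fosl1*, a Fos family partner of Jun proteins, had 14 UMIs at 0 HPA (0.33 CPM) and 2041 in Cont 6 HPA (19.3 CPM), a log2 ratio of 5.87 (5.12 to 6.75), and was at 16.05 CPM in Rom 6 HPA. *Fosb*, another Fos protein, went from 15 UMIs (0.35 CPM) to 1274 UMIs (12.04 CPM), a log2 ratio of 5.09 (4.37 to 5.94), and 16.2 CPM in Rom 6 HPA. Both had few UMIs at amputation and were far higher in each of the 6 HPA libraries. *Rrad*, a Ras-related GTPase listed here with the early factors, was at 1.39 CPM at 0 HPA and 31.5 CPM in Cont 6 HPA (4.51, 4.13 to 4.90), with 14.6 CPM under romidepsin. The zinc finger factors *Egr3* (log2 ratio 4.79, from 7 to 481 UMIs) and *Egr1* (3.15, from 24 to 529 UMIs) were also far higher. *Junb*, the most abundant of the strongly higher factors, was at 11.5 CPM at 0 HPA and 42.1 CPM in Cont 6 HPA, a log2 ratio of 1.87 (1.73 to 2.00). *Klf4* (1.59), *Zfp36* (1.38), an mRNA decay factor, and *Ppp1r15a* (1.11), which reverses the stress-induced block of translation, completed the 9. Of these 9, *Rrad*, *Zfp36* and *Ppp1r15a* are not transcription factors. Other members stayed below 2-fold: *Jun* had a log2 ratio of 0.50, *Fosl2* 0.50, *Ier2* 0.52 and *Jund*, the Jun gene that resting cells express, 0.11. *Ier5* (−0.18) was the only member below 0.

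Genes of JAK-STAT cytokine signalling, in which a receptor-bound kinase activates STAT factors and SOCS proteins then switch it off, included both cytokines and inhibitors past 2-fold. Of 11 measured members, 5 (45.5%, against 1.09% of all symbols) were at least 2-fold higher and none at least 2-fold lower (1.25% of all symbols). The median log2 ratio was 0.78. *Lep*, the cytokine leptin, had the highest ratio of the named genes. It had 5 UMIs at 0 HPA (0.12 CPM), 1000 in Cont 6 HPA (9.45 CPM) and 3.43 CPM in Rom 6 HPA, and its log2 ratio of 6.33 had an interval of 5.10 to 7.96 because of the low count at 0 HPA. *Socs3*, the inhibitor that this pathway induces, was at 3.60 CPM at amputation, 58.1 CPM in Cont 6 HPA and 29.3 CPM under romidepsin, a log2 ratio of 4.01 (3.78 to 4.25) between the controls. *Socs1* was at 5.67 and 16.4 CPM (1.54, 1.34 to 1.74), and *Irf1*, a STAT-responsive factor, at 4.70 and 11.5 CPM (1.30). *Cntf*, a cytokine of nervous tissue, was at 1.81 and 4.12 CPM (1.19). *Cish* (0.78), *Pim3* (0.66) and *Pim1* (0.37) were below 2-fold, the receptor subunit *Lifr* was level, and *Jak2* (−0.54) and *Irf7* (−0.68) were lower.

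Matrix enzymes formed the third group. Of 15 measured metalloproteinases, inhibitors and related enzymes, 5 (33.3%, against 1.09% of all symbols) were at least 2-fold higher and none at least 2-fold lower (1.25% of all symbols), the median log2 ratio was 0.47, and their summed level was 335 CPM at 0 HPA and 841 CPM in Cont 6 HPA. *Mmp8*, a collagenase, made up much of this sum, at 79.6 CPM at 0 HPA, 385 CPM in Cont 6 HPA and 222 CPM in Rom 6 HPA, with a log2 ratio of 2.27 (2.22 to 2.32). *Mmp19* was at 5.60 and 27.5 CPM (2.30), *Mmp2*, a gelatinase, at 33.9 and 94.0 CPM (1.47), and *Mmp1*, another collagenase, at 21.98 and 58.3 CPM (1.41). *Mmp* transcripts are members of 1 family, and how the authors' counting split reads between similar copies was not tested. *Timp1*, an inhibitor of these proteases, was higher as well, at 5.17 and 22.6 CPM (2.13). *Lox*, which cross-links collagen, was just below 2-fold (36.6 and 71.1 CPM, 0.96), as was *Adamts1* (24.4 and 46.2 CPM, 0.92), while *Mmp14* (0.05), *Mmp15* (−0.19) and *Timp2* (−0.12) were near level. *Adamts4*, outside the list and chosen after its values were seen, was at 2.61 and 7.92 CPM (1.60).

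Hyaluronan genes differed by enzyme. *Has2*, a hyaluronan synthase, was at 4.61 CPM at 0 HPA (196 UMIs), 23.2 CPM in Cont 6 HPA (2457 UMIs) and 4.27 CPM in Rom 6 HPA, with a log2 ratio of 2.33 (2.12 to 2.55) between the controls. The romidepsin library lay near the level of 0 HPA. *Has1*, its relative, was at 4.35 and 7.43 CPM (0.77), and *Ugdh*, which makes a sugar precursor of hyaluronan, at 148 and 171 CPM (0.21). Among partners of this matrix, *Thbs1*, a matrix glycoprotein, was higher (261 and 507 CPM, 0.95) and the proteoglycan *Vcan* was lower (84.4 and 53.4 CPM, −0.66). Only *Has2* of the 10 measured members was past 2-fold (10% higher, against 1.09% of all symbols, and none lower, against 1.25%). Collagens were near level, and the 10 measured ones had log2 ratios of −0.27 to 0.39 and a median of 0.19.

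Laminins of the epidermal basement membrane were among the highest symbols although other markers of basal epidermis were not. *Lamb3*, a chain of laminin 332, had 23 UMIs at 0 HPA (0.54 CPM) and 815 in Cont 6 HPA (7.71 CPM), a log2 ratio of 3.83 (3.24 to 4.50), and *Lama3*, a second chain, was at 1.18 and 3.94 CPM (1.75). The other 7 measured basal markers had log2 ratios of −0.55 to −0.02, among them *Tp63* (−0.27), the regulator of stratified epidermis, and *Krt5* (−0.02). Among other symbols with high ratios, *Cldn3*, a tight junction claudin, had 4 UMIs at 0 HPA and 221 in Cont 6 HPA (4.47, 3.10 to 6.36), and *Lrrn4cl* was at 2.49 and 15.1 CPM (2.60). *Rhob*, a small GTPase, was at 20.7 and 49.1 CPM (1.25). *Plek2*, which links membrane lipids to actin, was at 2.47 and 12.6 CPM (2.35), and *Itga5*, a fibronectin receptor chain, at 3.46 and 7.88 CPM (1.19). *Wnt10a*, a Wnt ligand of epidermis, was at 1.65 and 6.32 CPM (1.94), and *Areg*, an EGF receptor ligand, at 5.78 and 20.5 CPM (1.82). Other EGF receptor ligands were also higher, with *Ereg* at 51.3 and 81.9 CPM (0.67) and *Hbegf* at 26.6 and 39.7 CPM (0.58), both under 2-fold. *Krt17*, a keratin that wounded epidermis makes in mammals, was at 24.2 and 49.3 CPM (1.02) and at 16.05 CPM in Rom 6 HPA. It was at the threshold in all nuclei and under 2-fold in thinned and in shallow nuclei.

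Signalling inhibitors differed among themselves. Of 13 measured feedback inhibitors of MAPK, TGFb and BMP signalling, only *Dusp5*, which inactivates ERK, was past 2-fold in all nuclei (7.69%, against 1.09% of all symbols). *Dusp5* was at 10.5 CPM at 0 HPA, 44.3 CPM in Cont 6 HPA and 50.3 CPM in Rom 6 HPA (2.08, 1.94 to 2.23). *Dusp1* was at 12.8 and 24.7 CPM (0.95) and just past 2-fold in thinned (1.03), deep (1.03) and shallow nuclei (1.12), whereas *Spry1*, an inhibitor of receptor tyrosine kinase signals, was lower (18.6 and 12.4 CPM, −0.58) and *Smad7*, a TGFb inhibitor, was near level (9.94 and 11.4 CPM, 0.20). Of 25 measured genes in a list of Wnt, Fgf, Bmp, Tgfb, Shh and Notch signalling, 2 (8%, against 1.09% of all symbols) were at least 2-fold higher. These were *Wnt10a* and *Areg*, an EGF receptor ligand that the list holds although it belongs to none of these pathways. At least 2-fold lower were 3 (12%, against 1.25% of all symbols). The lower ones were the BMP-responsive factor *Id2* (56.9 and 28.4 CPM), the Notch ligand *Jag1* (23.6 and 11.6 CPM, −1.02) and the Hedgehog receptor *Ptch1* (11.8 and 5.87 CPM, −1.01). These lay at the threshold, and with 0.19 added they are below 2-fold. The Hedgehog ligand *Shh* was at 6.70 and 9.57 CPM (0.51).

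Some stress and inflammation genes were at least 2-fold higher while the medians of their lists lay between −0.19 and 0.07. Of 20 measured genes of oxidative stress, DNA damage and cell death, 4 (20%, against 1.09% of all symbols) were at least 2-fold higher, with a median of −0.19 over the list, equal to that of all symbols. These were *Gadd45b* (2.35 and 11.2 CPM, 2.25) and *Gadd45g* (7.19 and 24.1 CPM, 1.74), which are growth arrest proteins, the cell death factor *Pmaip1* (3.17 and 9.18 CPM, 1.53) and the haem-degrading enzyme *Hmox1* (2.99 and 8.38 CPM, 1.49). Of the 20, 7 were above 0, and *Nqo1* (−0.46) and *Gclm* (−0.34) were below it. Of 15 measured inflammation and myeloid genes, 2 (13.3%, against 1.09% of all symbols) were at least 2-fold higher. The list median was 0.07, against −0.19 over all symbols. The 2 were the prostaglandin synthase *Ptgs2* (1.74 and 5.89 CPM, 1.76) and the chemokine *Il8* (2.84 and 6.69 CPM, 1.23). The NF-kB inhibitor *Nfkbia* was lower (40.7 and 20.6 CPM, −0.99). Hypoxia and glycolysis genes showed a median of 0.12 over 20 members. None was past 2-fold, where 1.09% of all symbols were higher and 1.25% lower. *Cited2* was at 5.34 and 3.61 CPM (−0.56) and *G0s2* at 20.5 and 31.4 CPM (0.61). Chaperones (median −0.01 over 16) and the unfolded protein response (−0.04 over 20) were near level, with *Cryab* (2.19 and 4.72 CPM, 1.11), a small heat shock protein, past 2-fold in all nuclei but at 0.97 in thinned and 0.99 in shallow nuclei.

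**Figure D3:**
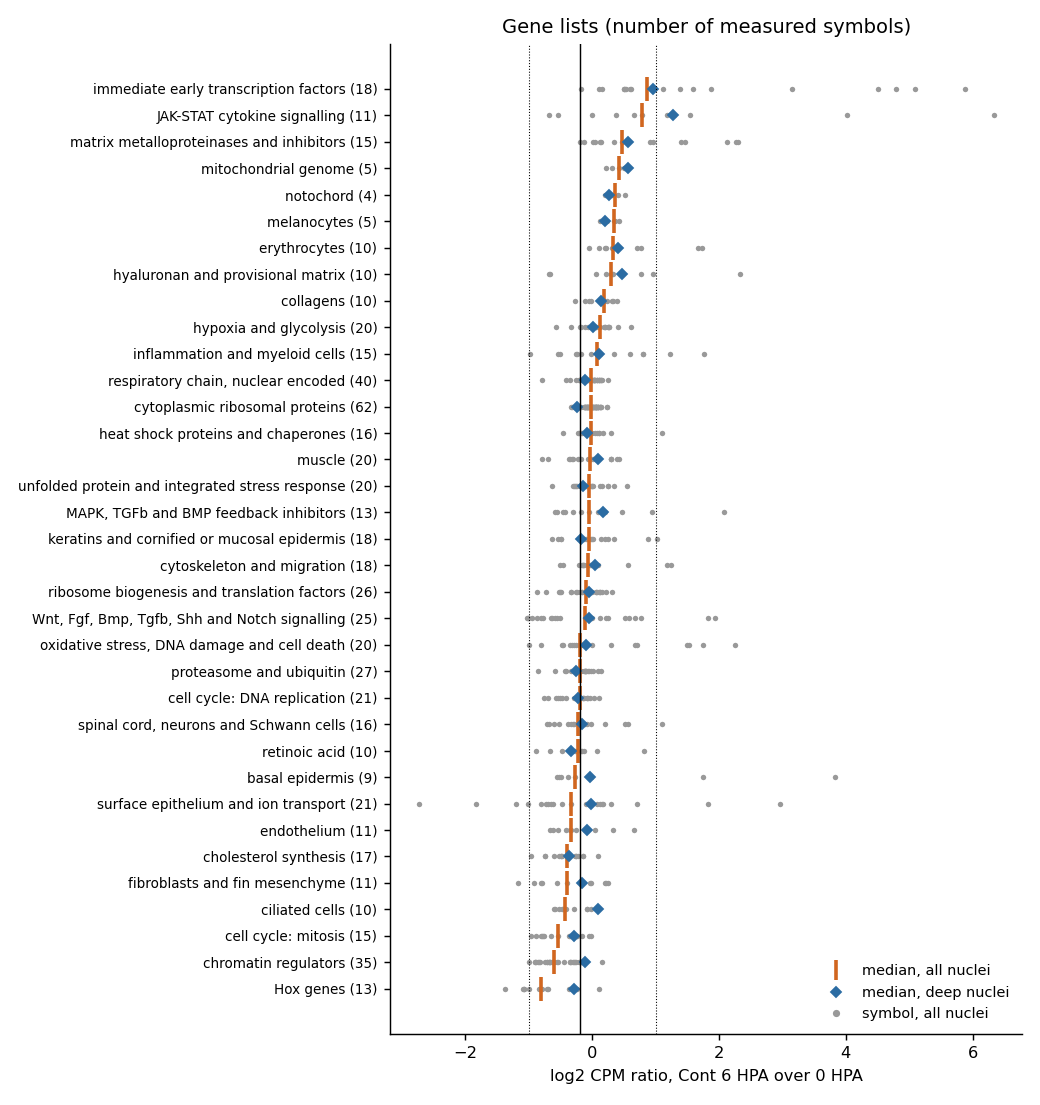
Log2 CPM ratio of Cont 6 HPA over 0 HPA (x axis) for each measured symbol of 35 gene lists (grey points, list size in brackets), with the median in all nuclei (orange bar) and in deep nuclei (blue diamond). In all nuclei, immediate early factors have the highest median (0.86) and Hox genes the lowest (−0.80), and the solid line is the median of all symbols (−0.19).

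Haemoglobin transcripts were the most abundant of the higher ones. *Hba-l5* was at 508 CPM at 0 HPA, 2013 CPM in Cont 6 HPA and 1761 CPM in Rom 6 HPA (log2 ratio 1.99), and *Hbb-bh1* at 210 and 768 CPM (1.87), both named after their values were seen. *Alas2*, the first enzyme of haem synthesis in red cells, was at 9.45 and 31.5 CPM (1.74), and *Slc4a1*, the anion exchanger of red cells and of ion-transporting skin, at 24.3 and 39.8 CPM (0.71). Of 10 measured erythrocyte markers, *Alas2* and *Hbb* were at least 2-fold higher (20%, against 1.09% of all symbols) and 9 were above 0. *Hba-l5* had UMIs in most nuclei of Cont 6 HPA. After each nucleus was thinned to 950 UMIs it was found in 42.5% of shallow nuclei at 0 HPA and 86.9% in Cont 6 HPA, and in 24.8% and 67.8% of deep nuclei. At their own depth, the shares were 45.1% and 96.6% of shallow and 51.1% and 98.5% of deep nuclei. Thinning left out 2800 nuclei of 0 HPA and 101 of Cont 6 HPA. *Krt5* had UMIs in 100% of deep nuclei of both libraries, and markers of muscle in all shallow nuclei, so a UMI of an abundant gene does not mark a cell type in these libraries. Whether RNA outside the nuclei contributed to these levels was not tested.

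The 3 lowest of the named symbols were genes of epithelia. *Elf3*, an Ets factor of differentiated epithelium, was at 105 CPM at 0 HPA (4456 UMIs), 15.8 CPM in Cont 6 HPA (1670 UMIs) and 32.04 CPM in Rom 6 HPA, with a log2 ratio of −2.73 (−2.81 to −2.65). *Ccl28*, a chemokine of mucosal surfaces, was at 16.9 and 3.34 CPM (−2.34), and *Noxo1*, a subunit of an epithelial NADPH oxidase, at 12.5 and 3.50 CPM (−1.84). *Grhl3*, a regulator of the surface epidermis and of wound closure in mice, was at 25.5 and 11.1 CPM (−1.21), and *Scnn1g*, a sodium channel subunit, at 16.1 and 7.95 CPM (−1.02). *Znf750*, a target of p63 in human epidermis, was chosen after its values were seen and was at 29.2 and 13.3 CPM (−1.14). Of 21 measured surface epithelium and ion transport genes, 4 were at least 2-fold lower (19.05%, against 1.25% of all symbols). At least 2-fold higher were 2 (9.52%, against 1.09% of all symbols). *Scnn1g* lay at the threshold, and 3 genes of the list were at least 2-fold lower in each of thinned, deep and shallow nuclei. The higher ones were *Trex2*, a nuclease of keratinocytes (4.96 and 38.4 CPM, 2.95), and *Vsig1* (1.27 and 4.52 CPM, 1.83), which in deep Cont 6 HPA nuclei occurred with erythrocyte markers, while *Cldn4* (0.16) and *Atp6v1b1* (0.13) were near level. Keratins ranged from *Krt19* (−0.63) to *Krt17* (1.02). Several other symbols among the lowest had few UMIs, such as the muscle regulator *Six1b* (462 and 432 UMIs, −1.41), *Lypd6*, a modulator of Wnt signals (192 and 145, −1.72), *Rai1* (206 and 178, −1.52), *Fgf14* (214 and 228, −1.22) and the repair factor *Ercc6* (100 and 107, −1.22). In deep nuclei *Lypd6* (−0.94), *Rai1* (−0.87), *Fgf14* (−0.53) and *Ercc6* (−0.50) were under 2-fold, whereas *Six1b* (−1.08) was past it. All of them were past 2-fold in shallow nuclei.

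The lower side differed with the depth of nuclei far more than the higher side. Of the 91 higher symbols, all had the same sign in deep, in shallow and in thinned nuclei, and 80, 85 and 82 of them were at least 2-fold higher there too. Of the 104 lower symbols, 14 were at least 2-fold lower in deep nuclei, 33 in shallow nuclei and 86 in thinned nuclei. In all, deep nuclei had 112 higher (1.35%) and 36 lower (0.433%) symbols, shallow nuclei 98 (1.18%) and 48 (0.577%), and thinned nuclei 89 (1.07%) and 198 (2.38%). The median lower symbol had 77.9% of its UMIs in deep nuclei at 0 HPA, against 40.7% for symbols between the thresholds, and 64.1% against 21.9% in Cont 6 HPA. *Elf3* (−2.81 in deep, −2.80 in shallow), *Ccl28* (−2.55, −2.10) and *Noxo1* (−1.44, −1.91) were lower in both classes. *Hoxb3*, a Hox factor, was at 179 and 68.8 CPM in all nuclei (−1.38), with −0.68 in deep and −1.08 in shallow nuclei. The share of deep nuclei differed between the libraries (19.98% and 9.36%), and its part in the lower levels was not tested beyond these values within each class.

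**Figure D4:**
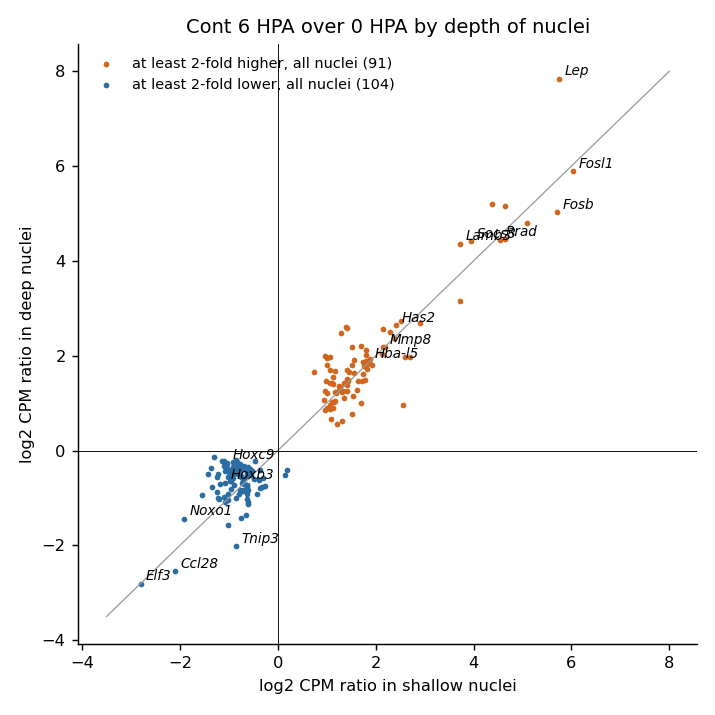
Log2 CPM ratio of Cont 6 HPA over 0 HPA in shallow nuclei (x axis) and deep nuclei (y axis) for the 91 symbols at least 2-fold higher (orange) and the 104 at least 2-fold lower (blue) in all nuclei, with the line of equal values. Orange points follow the line, while most blue points lie between −1 and 0 in deep nuclei, and *Lep* rests on 1 UMI in deep nuclei of 0 HPA.

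Hox genes and chromatin regulators also differed by depth class. Of 13 measured Hox genes, which set position along the body axis, 5 were at least 2-fold lower in all nuclei (*Hoxb3*, *Hoxc9*, *Hoxc6*, *Hoxd4* and *Hoxb9*), with a median of −0.80, against 1.25% of all symbols. In nuclei thinned to equal UMIs, in which both depth classes remain, 5 were also at least 2-fold lower (2.38% of all symbols were). The median was −0.82 there, and −1.18 without the 6% deepest nuclei. Within deep nuclei none was at least 2-fold lower (median −0.28, 0.433% of all symbols were). Within shallow nuclei 2 were (median −0.47, against 0.577% of all symbols). *Hoxc9* was at 39.3 and 18.5 CPM (−1.08) in all nuclei and at −0.26 in deep ones, and *Hoxc13*, the most posterior of the measured genes of its cluster, was near level (0.11). Of 35 measured chromatin regulators none was past 2-fold in all nuclei, with a median of −0.60. Of all symbols, 1.09% were higher and 1.25% lower there. In thinned nuclei 5 were at least 2-fold lower (2.38% of all symbols were), with a median of −0.62. The median was −0.35 in shallow nuclei and −0.12 in deep nuclei, where the median of all symbols was −0.13. The methyltransferase genes *Kmt2a* (−0.90 in all, −0.16 in deep nuclei) and *Kmt2d* (−0.84, −0.07) and the remodeller *Chd8* (−0.90, −0.10) had that shape, and *Hdac1* (−0.19, −0.23) did not. None of 15 measured genes of mitosis was above 0 in all nuclei (24.2% of all symbols were). None was at least 2-fold lower there (1.25% of all symbols were), with a median of −0.54 in all and −0.29 in deep nuclei. Cholesterol synthesis had medians of −0.40 and −0.36 over 17 genes, none at least 2-fold lower in all nuclei (1.25% of all symbols were). Cytoplasmic ribosomal proteins were at −0.01 in all and −0.23 in deep nuclei over 62 genes. The 5 measured mitochondrial genes were all higher, with a median of 0.42 in all and 0.56 in deep nuclei.

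Deep nuclei also show with which cell type markers the higher genes occurred together. For each named gene, deep Cont 6 HPA nuclei with at least 1 UMI of it were set beside those with none, and the markers at least 2-fold higher in CPM were counted. These are nuclei of 1 library, the gene itself was left out of its list, nuclei with a UMI were mostly deeper, and the pairs described were picked after the values were seen, so the counts are a description. *Rrad* was found with muscle: in 431 nuclei with it, 12 of 20 muscle markers were at least 2-fold higher, and their summed level was 1.81 times that of the other 4901. *Sbk1*, a kinase at 0.26 and 6.50 CPM (4.65), showed the same 12 of 20 in 168 nuclei, *Irf1* 9 and *Socs1* 8. At 0 HPA these 2 differed: *Irf1* was found with 8 of 10 ciliated cell markers in 85 deep nuclei (sum 4.56 times). *Socs1* was found there with 2 of 20 muscle markers in 121. In Cont 6 HPA, *Socs3* was less restricted, with 6 of 20 muscle markers and 4 of 9 basal epidermis markers in 1345 nuclei. *Wnt10a* and *Areg* were found with basal epidermis (7 of 9 markers each). *Plek2* and *Lrrn4cl* had 6 of 9 basal markers, *Lamb3* 6 of 8 and *Mmp8* 5 of 9 in 3153 nuclei. *Smad7* also had 6 of 9, and *Hmox1* and *Cldn3* 5 of 9, so counts of 5 or 6 do not set a gene apart. Nuclei with *Lamb3* also had sums of 1.79 times for collagens and 1.53 times for notochord (2 of 4 markers). For *Wnt10a*, *Areg*, *Plek2*, *Lrrn4cl*, *Lamb3* and *Mmp8*, the summed basal level ran from 0.910 times (*Lamb3*) to 1.03 times (*Mmp8*) that of nuclei without the gene. For *Socs3* it was lower, at 0.874 times. *Krt5* makes up most of that sum. The basal list also holds *Lama3* and *Lamb3*, which were themselves higher in Cont 6 HPA. How many of all symbols were at least 2-fold higher in the same nuclei was not counted.

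For *Has2* and *Lep*, the fibroblast list had the most markers past 2-fold, among lists of unequal length. The share of all symbols past 2-fold in these nuclei was not counted. In 495 deep nuclei with *Has2*, 4 of 11 fibroblast markers were at least 2-fold higher and their sum was 1.35 times that of other nuclei (1.28 to 1.43), and in 205 nuclei with *Lep* 3 of 11 were, with a sum of 1.34 times. The remaining fibroblast markers were under 2-fold, and for *Lep* the sum of the neural list was 1.32 times, with 2 of 16 markers past 2-fold. Some other named genes had more fibroblast markers past 2-fold, such as *Hoxb3* (6 of 11, sum 1.40 times) and *Adamts4* (5 of 11, 1.65 times). The counts therefore do not set *Has2* and *Lep* apart. *Igfbp1*, a growth factor binding protein at 24.4 and 88.5 CPM (1.86), was found with endothelium (6 of 11 markers in 1181 nuclei), as was *Itga5* (5 of 11). Their endothelial sums were 1.84 and 1.82 times those of other nuclei. *Adamts4* was found with 11 of 11 endothelial markers in 293 nuclei, with a sum of 5.06 times (4.52 to 5.66). *Cntf* and *Cryab* were found with all 4 notochord markers in 104 nuclei each, *Vgf*, a neuropeptide precursor, with 7 of 15 neural markers, and *Vsig1* with 8 of 10 erythrocyte markers. Of the immediate early genes, *Fosl1* was found with 2 of 9 basal markers in 461 nuclei and *Junb* with 4 of 9 in 837. Other named genes had more, such as *Smad7* (6 of 9) and *Hmox1* (5 of 9), so these counts do not set *Fosl1* and *Junb* apart. Among the lower genes, at 0 HPA, *Tnip3*, an NF-kB regulator, occurred with 9 of 21 surface epithelium markers and *Ccl28* with 6, but *Elf3* with 2 of 20 in 1138 nuclei and *Noxo1* with 2 of 20 in 197, while *Six1b*, a muscle regulator, occurred with 13 of 20 muscle markers.

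**Figure D5:**
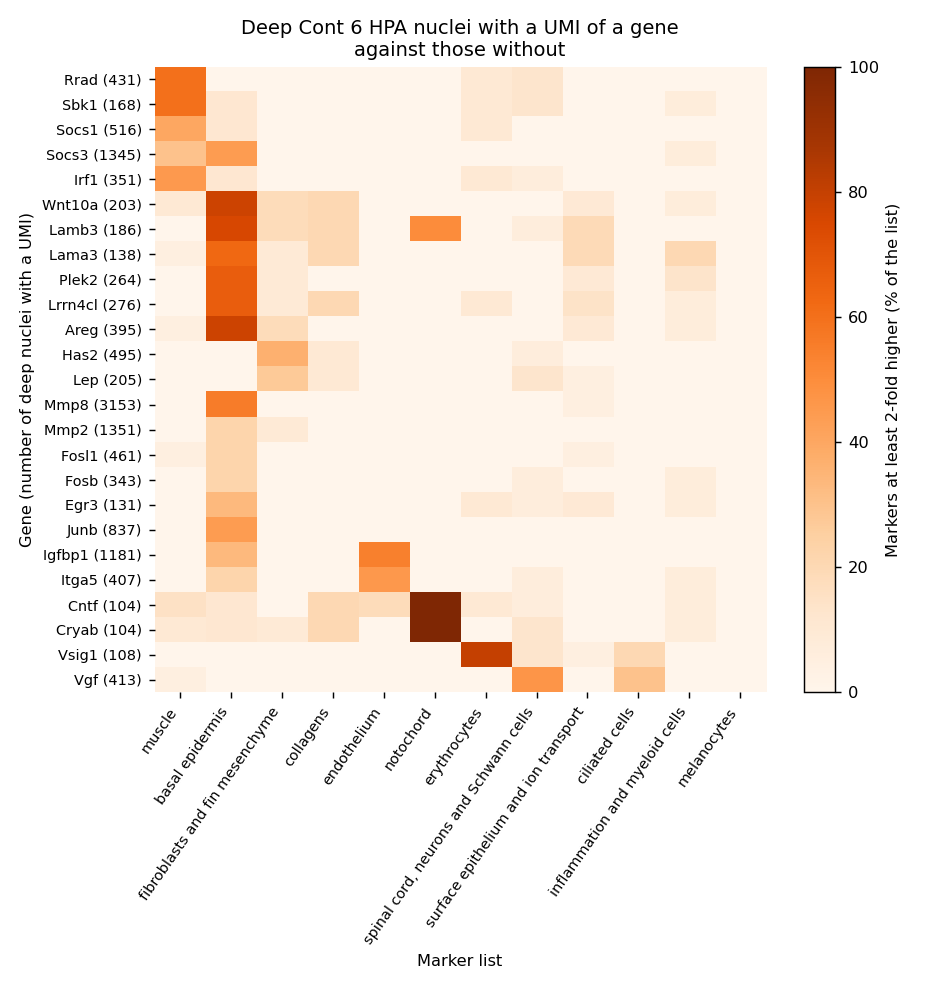
Share of the markers of each list (x axis) that were at least 2-fold higher in CPM in deep Cont 6 HPA nuclei with a UMI of a gene (y axis, number of such nuclei in brackets) than in those without, from 0 to 100%. *Rrad* and *Sbk1* stand out for muscle, *Wnt10a* and *Areg* for basal epidermis, and *Cntf* and *Cryab* for notochord.

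How even the UMIs were over nuclei differed by depth class as well. After thinning to 950 UMIs, the variance of summed muscle markers over nuclei was 11.6 times the mean in deep nuclei of 0 HPA and 9.56 times in those of Cont 6 HPA, against 1.35 and 1.16 times in shallow nuclei, where a value of 1 is what random spread gives. For endothelium the values were 3.13 and 2.58 times in deep and 1.18 and 1.07 times in shallow nuclei. Over 12 marker lists the values ran from 1.08 to 11.6 in deep and 1.02 to 1.35 in shallow nuclei of 0 HPA, and from 1.07 to 9.56 and 1.01 to 1.16 in Cont 6 HPA. *Has2* was found in 0.445% of deep and 0.352% of shallow nuclei at 0 HPA, and in 3.36% of deep (2.89 to 3.88) and 1.79% of shallow nuclei (1.68 to 1.91) of Cont 6 HPA, all after thinning. At their own depth the shares were 1.54% and 0.379% at 0 HPA and 9.28% and 2.97% in Cont 6 HPA. *Socs3* was found in 7.80% of deep and 4.52% of shallow thinned nuclei of Cont 6 HPA (25.2% and 7.64% at their own depth), and *Mmp8*, the other way round, in 22.9% of deep and 32.2% of shallow ones (59.1% and 48.0%). No cell type was assigned here in which these genes should be absent, so a background share cannot be set beside them.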

How the data were processed

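The authors isolated nuclei from pooled tail tips, made 10x v3 libraries, aligned them to assembled axolotl transcripts and counted UMIs with Cell Ranger (3.0.2 per the file headers and 6.0.0 per the submitters' processing notes). The deposited values are whole-number counts per nucleus and transcript feature, without normalization. All barcodes in the files were kept, no doublet caller was run and no cell types were assigned. Counts were summed by symbol and library and divided by the library total. Intervals are exact 95% Poisson, conditional (ratios) or Clopper-Pearson (shares) intervals. Thinning drew 950 UMIs per nucleus without replacement. The ratio and its interval were tested on simulated Poisson counts with known folds. The interval assumes such counts, so this checks the calculation only. Scripts used Python with numpy, scipy and pandas. Named genes are the 15 highest and 15 lowest symbols (repeats, clone names and numbered reading frames left out, and not all are described), members of 36 gene lists past 2-fold (all if up to 6, otherwise the 4 farthest from 0), genes the study names in its single-nuclei results and the 4 most abundant per library, with others as said. One list, the study's Nanostring panel, had 14 of 66 measured members at least 2-fold higher (21.2%, against 1.09% of all symbols). It had 3 at least 2-fold lower (4.55%, against 1.25%). The study took the genes of this panel from earlier work on axolotl embryo tail regeneration, so these shares describe a chosen set. Members and lists were chosen with earlier results of these data known. A few single genes were left out of the text. Depth was 42537606 and 105765943 UMIs in the libraries compared. Alternatives changed the scaling, the minimum of UMIs, the feature summed and the nuclei used.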

Additional observations from a re-analysis of the deposited data

How the results depend on the processing

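The number of symbols at least 2-fold higher (91) was within 1.5 times of that value under all alternatives but a minimum of 1000 UMIs (55) and nuclei in 1 window of UMIs (144). The number at least 2-fold lower (104) was 20 with median of ratios size factors, 312 with a minimum of 50 UMIs, 34 with 1000 UMIs, 198 in thinned, 36 in deep and 48 in shallow nuclei, 2020 in the window and 597 without the 6% deepest nuclei. The median log2 ratio was 0 with median of ratios size factors. The window of 1525 to 2299 UMIs takes nuclei above the median of 0 HPA and nuclei around the median of Cont 6 HPA, so it sets unlike nuclei side by side, and *Itga5* (−0.89) and *Vmp1* (−0.029) changed sign in it. No other named symbol past 2-fold changed sign in any alternative run. Leaving out nuclei with a shared barcode, an alternative chosen after seeing the data, gave 89 higher and 105 lower symbols. No paired analysis was possible because each group is 1 library, and no replicate could be left out. Rare symbols such as *Lep* are limited by counts at 0 HPA.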

Other observations

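Some further symbols past 2-fold in Cont 6 HPA belong to no list and were chosen after their values were seen. *Plin2*, a coat protein of lipid droplets, was at 14.8 CPM at 0 HPA and 43.3 CPM in Cont 6 HPA (log2 ratio 1.55). *Pthlh*, a secreted relative of parathyroid hormone, was at 2.28 and 8.15 CPM (1.84), and *Hpx*, which binds free haem, at 2.26 and 7.03 CPM (1.64). *Errfi1*, an inhibitor of the EGF receptor, was at 2.35 and 6.85 CPM (1.54), and *Nfil3*, a bZIP repressor, at 12.7 and 31.97 CPM (1.33). On the lower side, *Bmp1*, a protease that processes procollagen, was also chosen after its values were seen. Unlike the others, it belongs to the list of Wnt, Fgf, Bmp, Tgfb, Shh and Notch signalling. *Bmp1* was at 35.6 and 19.5 CPM (−0.87), under 2-fold in all nuclei and −1.08 in deep ones.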
